A study of Mus musculus with 4 samples.

Results

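IN1 is the name given by the authors to 1 of 12 subtypes of inhibitory neurons in mouse superior colliculus, the layered midbrain region that receives retinal input and directs orienting movements. Its members were taken as the nuclei that carry the subtype name IN1 in the deposited table of nuclei, and there were 593 of them among 3459 inhibitory nuclei and 9724 nuclei in all. The mice were of the C57BL/6J strain and were sampled 1 time before birth, on embryonic day 19 (E19), and 3 times after it, at 4 days (P4), 8 days (P8) and 21 days (P21) of age, with 1 single-nucleus RNA library per age made from tissue pooled from several animals, with no genetic change or treatment named in the labels. The sources used here do not state the numbers and sexes of the pooled animals, and 1 label abbreviated the embryonic stage differently from the sample title. Of the IN1 nuclei, 266 came from the E19 library, 205 from P4, 52 from P8 and 70 from P21. With 1 library per stage there was no replicate of any stage, so no test between stages was made and each difference below is a difference between libraries.

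Inhibitory neurons release gamma-aminobutyric acid (GABA), which the enzymes GAD67 and GAD65, encoded by Gad1 and Gad2, make from glutamate and which the vesicular transporter encoded by Slc32a1 loads into synaptic vesicles. In the developing dorsal midbrain these neurons acquire their fate under selector transcription factors such as Gata2. In the superior colliculus they include local interneurons of the visual layers and neurons that project out of it, and their subtypes are commonly told apart by transcription factors, adhesion molecules and receptors.

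The libraries held between 2249 and 2585 nuclei and between 19277512 and 31325079 unique molecular identifiers (UMIs, each standing for 1 captured RNA molecule). The IN1 nuclei were the deepest of the 12 inhibitory subtypes in every library, with medians of 8604.5, 11318, 15284 and 20393 UMIs per nucleus at E19, P4, P8 and P21 against 5433, 6763, 9124 and 13494.5 in the other inhibitory nuclei as a pool. They also had the lowest median percent of mitochondrial UMIs of the 12 subtypes in every library, 0.513, 0.606, 0.247 and 0.144. A total of 9 cell barcodes occurred in more than 1 library. The part played by these depth differences in the results below was not tested, except where a value after thinning is given.

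The label was checked first against the enzymes of GABA synthesis, on the scale of counts per 1000000 UMIs of the summed nuclei (CPM). Gad2 stood at 568, 529, 555 and 412 CPM in IN1 at E19, P4, P8 and P21, with exact Poisson 95% intervals of 538 to 599, 500.2 to 559, 504 to 610.1 and 379.9 to 446. Here and below such intervals cover counting error only. In the excitatory neurons of the same libraries Gad2 stood at 23.8, 20.6, 12.1 and 16.8 CPM, so IN1 was far above them at every stage and close to the 550.0, 467, 436 and 359.5 CPM of the other inhibitory neurons. Gad1 was 224, 214, 228 and 170.2 CPM in IN1 against 321, 291, 286 and 246 CPM in the other inhibitory neurons and 23.9, 17.0, 15.6 and 12.7 CPM in the excitatory neurons. In all 4 libraries the Gad1 level of IN1 was therefore below that of its inhibitory neighbours and above that of the excitatory neurons. Slc32a1 was 119, 104, 50.6 and 76.1 CPM in IN1 against 10.8, 7.85, 8.26 and 5.13 CPM in the excitatory neurons, and Slc17a6, the vesicular glutamate transporter of excitatory midbrain neurons, was 43.1, 37.3, 15.6 and 7.34 CPM in IN1 against 286, 241, 182 and 176 CPM in the excitatory neurons.

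Counted by nucleus, a Gad2 UMI was found in 89.8%, 93.2%, 100% and 100% of IN1 nuclei at E19, P4, P8 and P21, and in 11.8%, 15.8%, 15.0% and 21.7% of excitatory nuclei, whose median depths were 8051.5, 11738, 14158 and 19601 UMIs. After thinning every nucleus to 2000 UMIs, which left out no nucleus, the shares were 58.6%, 57.1%, 65.4% and 51.4% in IN1 and 4.04%, 3.73%, 1.96% and 3.08% in excitatory neurons. IN1 thus exceeded the excitatory neurons in Gad2 at every stage, also at equal depth. The exceptions were 24 IN1 nuclei, 18 at E19 and 6 at P4, with no UMI of Gad1, Gad2 or Slc32a1. Of these, 15 lay in the authors' cluster number 2, 8 in cluster 0 and 1 in cluster 7. A further count found 5 IN1 nuclei at E19 and 7 at P4 with 3 or more UMIs of vesicular glutamate transporters, and none at P8 or P21. The treatment of doublets is not stated in the sources used here.

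Markers of other cell types were also counted. Summed oligodendrocyte markers were 56.3, 57.2, 45.4 and 216 CPM at E19, P4, P8 and P21, against 59.7, 66.1, 69.3 and 356 CPM in the other inhibitory neurons, and summed astrocyte markers ranged from 64.1 to 199.7 CPM against 81.0 to 199 CPM. Epithelial markers stood out at P4, with 65.5 CPM in IN1, 117 CPM in the other inhibitory neurons, 74.7 CPM in the excitatory neurons and 103 CPM in the nuclei named epithelial cells, and were at most 1.71 CPM in IN1 in the other 3 libraries. Summed microglial markers ranged from 11.7 to 15.3 CPM and summed endothelial markers from 11.6 to 16.0 CPM over the 4 libraries. At P21 IN1 held no UMI of 3 of 3 markers of dividing cells and of 3 of 4 markers of oligodendrocyte precursors. The part of free RNA or other cells in the level of any single gene was not tested.

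The share of IN1 among inhibitory neurons differed widely between the libraries. IN1 made up 29.8% of inhibitory nuclei in the E19 library (exact Clopper-Pearson 95% interval 26.8 to 32.9%) and 27.8% in the P4 library (24.6 to 31.2%). The share was 4.78% in the P8 library (3.59 to 6.22%) and 9.46% in the P21 library (7.45 to 11.8%). It was the most numerous of the 12 subtypes at E19 and P4, the 10th at P8 and the 5th at P21. The early and late shares did not overlap in their counting intervals, and the P21 share lay above that of P8. Over all neurons the IN1 share was 11.9%, 10.5%, 2.66% and 4.92%. The most similar subtypes by expression, described below, did not show this spread: IN2 took 18.5%, 14.9%, 13.1% and 11.8% of inhibitory nuclei, and IN8 took 7.39%, 5.83%, 5.61% and 5.41%. The sources used here do not state how nuclei were assigned to subtypes, and an assignment by expression would use genes that differ between stages in IN1, so the share and the assignment cannot be told apart.

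**Figure D1:**
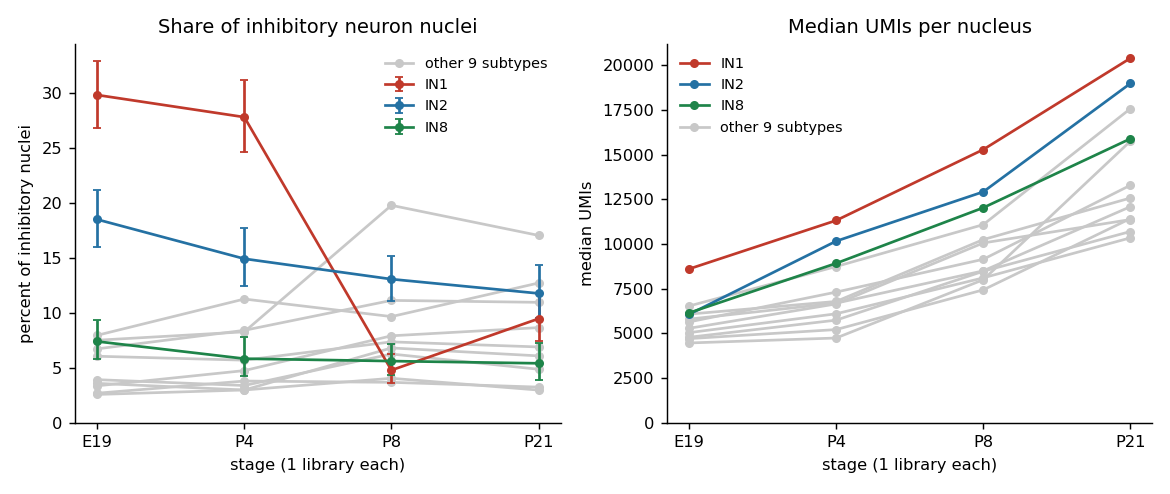
The left plot gives the percent of inhibitory nuclei in each subtype by stage, with exact 95% binomial intervals for IN1, IN2 and IN8, and the right plot the median UMIs per nucleus, with the other 9 subtypes in grey. IN1 stands at 29.8% and 27.8% at E19 and P4 and at 4.78% and 9.46% at P8 and P21, and is the deepest subtype at every stage.

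The comparison with the other 11 inhibitory subtypes asks which genes characterise IN1. Subtypes of this kind are told apart by the expression of the same nuclei, so the values describe IN1 and carry no test. A gene was called when its log2 ratio, with 5 CPM added to both sides, reached at least 2-fold the same way in all 4 libraries. Of 9279 genes with a mean of at least 10 CPM over the profiles compared, 8 were called higher in IN1 (0.0862%) and 31 lower (0.334%), while 12.2% were above and 17.0% below the others in all 4 libraries at any size. Against this pool, IN1 was thus marked by more low genes than high ones. Against IN2 or IN8 alone, described below, more genes were called higher than lower. For each of these 8 and 31 genes the counting intervals of IN1 and the others did not overlap in any library. The genes were chosen for their differences in these same libraries, so this separation is no further support. The 8 genes were Gpc5, Hs6st3, Tcf7l2, Slit3, Cadps2, Sec24d, Dgkk and the non-coding A830019P07Rik. With 20 CPM added in place of 5, the calls were 3, all among the 8 (Gpc5, Hs6st3 and Tcf7l2), and 16, all among the 31, and with 1 CPM added they were 14 and 42.

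Gpc5 and Hs6st3 act on heparan sulfate, the sugar chain that binds growth factors and guidance cues at the cell surface. Gpc5, a glypican that carries such chains (chr14:115092215-116525179 on GRCm38), stood at 723, 715, 1551 and 1009.7 CPM in IN1 at E19, P4, P8 and P21 against 129, 236, 243 and 232 CPM in the others, log2 ratios of 2.44, 1.58, 2.65 and 2.10. IN1 ranked 1st of the 12 subtypes for Gpc5 in every library, with IN2 next each time. Hs6st3, an enzyme that sulfates heparan sulfate at the 6-O position (chr14:119138341-119869815), was 1453, 1294, 1623 and 1167 CPM against 487, 598, 602 and 493 CPM. Every IN1 value for Hs6st3 was above every value of the others, and the log2 ratios ran from 1.11 to 1.57. The reverse held for Hs3st3b1, which encodes a 3-O-sulfotransferase of the same chains and stood at 35.4, 44.4, 45.4 and 35.4 CPM in IN1 against 215, 195, 248 and 151 CPM. Gpc5 was not particular to inhibitory neurons, since the excitatory neurons held 651, 930.1, 1025 and 1087 CPM.

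Tcf7l2, a transcription factor that mediates Wnt signalling (chr19:55741820-55933654), was 239.7, 706, 135 and 309.6 CPM in IN1 against 109, 113, 18.6 and 19.4 CPM in the others. IN1 was again the highest of the 12 subtypes in every library, and its log2 ratios to the pooled others were 1.11, 2.60, 2.57 and 3.69. Lef1, another factor of the same TCF/LEF family (chr3:131110471-131224356), showed the opposite picture with 28.1, 57.7, 88.2 and 46.7 CPM in IN1 against 537, 515, 476 and 312 CPM, log2 ratios of −4.03, −3.05, −2.37 and −2.62. IN1 ranked 11th of the 12 subtypes for Lef1 in all 4 libraries. The 2 genes of one family therefore separated IN1 from the other inhibitory neurons in opposite directions at every stage.

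The remaining genes called higher encode secreted, trafficking and signalling proteins. Slit3, a ligand of Robo axon guidance receptors (chr11:35121224-35708507), was 156, 255, 372 and 178 CPM in IN1 against 58.3, 118, 90.1 and 73.7 CPM. Cadps2, which primes dense-core vesicles for release (chr6:23262773-23839421), was 136, 205, 98.5 and 221 CPM against 32.9, 56.8, 46.5 and 65.3 CPM. Sec24d, a COPII coat subunit of vesicles that leave the endoplasmic reticulum, was 29.4, 46.0, 44.1 and 42.0 CPM against 10.8, 16.8, 18.1 and 17.2 CPM. IN1 was the highest subtype for Sec24d in all 4 libraries, for Slit3 at E19 and P8, and for Cadps2 at E19 and P4. Dgkk, a diacylglycerol kinase, was 17.9, 20.7, 19.4 and 14.0 CPM against 3.04, 6.29, 6.69 and 4.49 CPM. Dgkk at P21 and Cadps2 at P8 lay at the edge of the 2-fold rule. Without the IN1 nucleus richest in the gene, Cadps2 was 88.1 CPM at P8. Sec24d was then 38.2 and 38.7 CPM, and Dgkk 15.9 and 10.9 CPM, at P8 and P21. Each of these values was less than 2-fold above the others with 5 CPM added, so these calls rested on single nuclei. Gpc5, Hs6st3, Tcf7l2 and Slit3 stayed past 2-fold in every library without their richest nucleus. Dgkk had 15 and 21 UMIs in IN1 at P8 and P21 and was below 10 CPM in the others. Just outside the rule lay the serotonin receptor gene Htr7, at 59.3, 90.8, 106 and 133 CPM against 21.01, 42.7, 40.8 and 65.6 CPM, whose P21 log2 ratio was 0.97, as well as Zdbf2 and Mecom, each with a lowest log2 ratio of 0.93.

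Several of the 31 genes called lower encode transcription factors. Otx2, which specifies midbrain identity, was 40.9, 28.6, 88.2 and 30.7 CPM in IN1 against 199.6, 147, 186 and 105 CPM, and its antisense neighbour Otx2os1 was 325, 343, 791 and 237 CPM against 2195, 2135, 2391 and 1094 CPM. These 2 genes overlap on opposite strands in the annotation (GENCODE M21). The use of strand in the authors' counting was not stated in the sources used here, and whether UMIs are shared between them was not tested. Zeb2, a zinc finger repressor, was 101, 73.0, 94.7 and 70.7 CPM against 460.4, 372, 399 and 269.7 CPM. Foxp2 was 218, 159, 231 and 181 CPM against 748, 604, 588 and 484 CPM and Bcl11a was 184, 83.0, 143 and 82.1 CPM against 479.7, 335, 345 and 233 CPM. For Otx2, Otx2os1, Zeb2, Foxp2 and Bcl11a the IN1 values lay below the level of the pooled others in every library.

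Both retinoid-related orphan receptor genes on the list were also lower. Rora was 730.1, 820.5, 1009 and 1784 CPM in IN1 against 1964, 2201, 2799 and 4219 CPM, a log2 ratio that ran only from −1.47 to −1.24 over the stages. Rorb was 106, 68.4, 31.1 and 27.4 CPM against 337, 224, 304 and 193 CPM, and its P21 level in IN1 was 14.3 CPM without the nucleus richest in it. IN1 ranked 11th or 12th of the 12 subtypes for Rora. Outside the nucleus, the large cadherin gene Fat4 was 69.5, 50.6, 49.3 and 21.4 CPM against 265, 219, 245 and 143 CPM, and Igsf21, which encodes a synaptic adhesion protein, was 119, 127, 128 and 75.4 CPM against 279.5, 289.9, 333 and 199 CPM. The other genes called lower were similar in size, among them Frmd6 at 22.2, 21.6, 27.2 and 22.7 CPM against 95.9, 80.2, 86.6 and 82.6 CPM and Lmo1 at 46.5, 41.1, 31.1 and 18.7 CPM against 209, 153, 168 and 57.1 CPM.

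**Figure D2:**
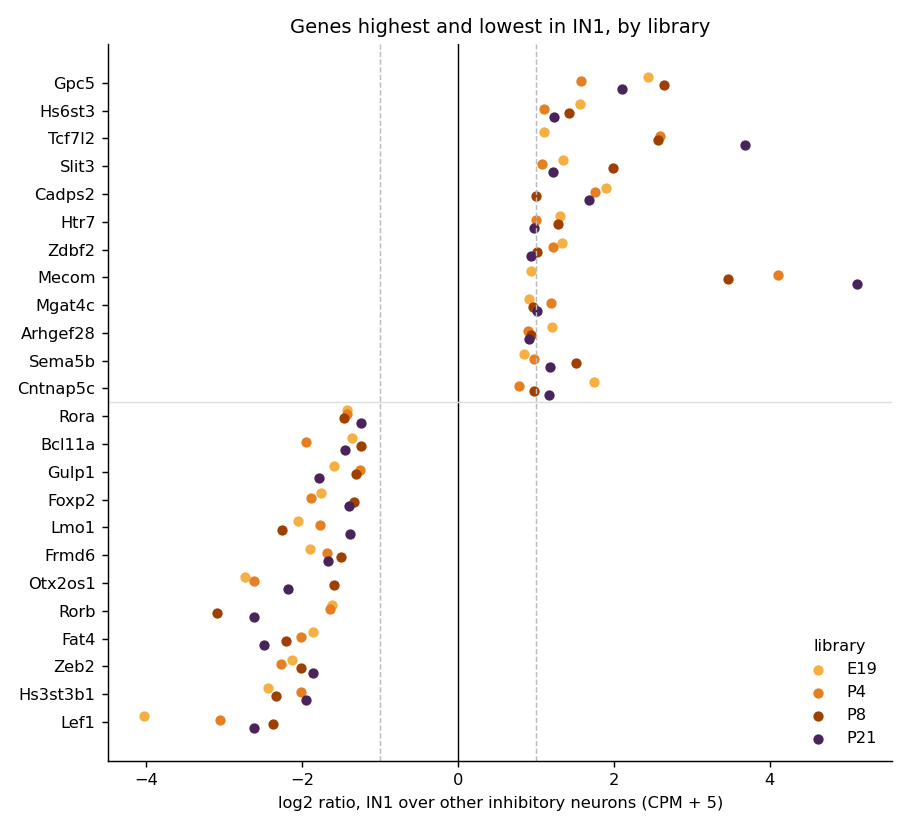
Log2 ratio of IN1 to the pooled other inhibitory neurons, with 5 CPM added to both, for the 12 genes ranked highest and the 12 ranked lowest in IN1, with 1 point per library and dashed lines at a 2-fold difference. All points of Gpc5 lie between 1.58 and 2.65 and all points of Lef1 between −4.03 and −2.37, and Mecom spreads most widely over the libraries.

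Of 15 measured genes of midbrain patterning and GABAergic selection, 1 was called higher in IN1 (Tcf7l2) and 3 lower. At any size, 3 were above and 8 below the others in all 4 libraries. Their median log2 ratio was −0.33 against −0.03 over all genes tested. Of all genes tested, 0.0862% were called higher and 0.334% lower, and 12.2% were above and 17.0% below in all 4 libraries. The GATA factor gene Gata3 was close to the others, with 165, 133, 165 and 79.4 CPM against 139.9, 125, 117 and 80.3 CPM. Pax7, a paired-box factor of the dorsal midbrain, was 27.3, 18.3, 68.7 and 34.0 CPM against 189, 147, 115 and 59.1 CPM. The counting intervals for Gata3 overlapped except at P8, whereas Pax7 was below the others in every library. Of 45 other neuronal transcription factors, none was called higher, 7 were called lower and 24 were below the others in all 4 libraries, with a median of −0.45. The 14 gene lists described here held 498 genes and were drawn up with earlier results of these data known, and each count is over the members that passed the filter on low values, such as 15 of 42 for the patterning list and 18 of 38 for the neuromodulator receptors.

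The receptor and channel lists held no gene called in either direction, where 0.0862% of all genes were called higher and 0.334% lower. At any size, 12.2% of all genes were above and 17.0% below the others in all 4 libraries. Of 20 genes of GABA and glycine receptors and chloride transport, 9 were above and 4 below the others in all 4 libraries, with a median log2 ratio of 0.11. Glra3, a glycine receptor subunit gene, was 41.8, 56.0, 53.2 and 84.1 CPM in IN1 against 16.3, 26.4, 37.6 and 44.5 CPM. Of 22 glutamate receptor genes, 3 were above and 6 below, with a median of −0.08.

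Of 25 sodium, calcium and HCN channel genes, 11 were above and 5 below the others in all 4 libraries. Of 32 potassium channel genes, 7 were above and 9 below, where 12.2% of all genes tested were above and 17.0% below. Scn9a, the gene of the sodium channel Nav1.7, was 233, 258, 197 and 61.4 CPM in IN1 against 109, 171, 129.9 and 30.0 CPM. Kcnq5, a subunit of the M-type potassium channel, was 449, 772, 689.8 and 623 CPM against 185, 411, 409 and 189 CPM. Both genes were higher in IN1 at every stage, by less than 2-fold in at least 1 library. Of 18 neuromodulator receptor genes, 6 were above and 3 below, with a median of 0.18. Next to Htr7, the serotonin receptor gene Htr1f was 58.0, 59.3, 64.8 and 109 CPM in IN1 against 22.1, 30.7, 55.4 and 72.8 CPM, Htr2c was 195, 252, 162 and 970.3 CPM against 87.1, 174, 142 and 447 CPM, and Tacr1, the receptor of substance P, was 38.0, 28.2, 32.4 and 28.0 CPM against 8.30, 16.6, 12.8 and 11.3 CPM. Htr7, Htr1f, Htr2c and Tacr1 were each above the other inhibitory neurons in all 4 libraries, though the counting intervals of Htr1f and Htr2c overlapped at P8.

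Among genes of wiring, 1 of 65 axon guidance genes was called higher (Slit3) and none lower. None of 66 cadherin and synaptic adhesion genes was called higher and 1 lower (Igsf21). Over all genes tested, 0.0862% were called higher and 0.334% lower. The transmembrane semaphorin gene Sema5b was 73.4, 75.5, 95.9 and 58.1 CPM in IN1 against 38.4, 36.0, 30.4 and 22.8 CPM. Ntng1, which encodes the membrane-anchored netrin-G1 of axons, was 507, 627, 319 and 194 CPM against 993, 1171, 1126 and 725 CPM. Nrp2, a co-receptor of class 3 semaphorins, was 94.7, 133, 122 and 72.7 CPM against 207, 266, 384 and 208 CPM. Sema5b was thus higher, and Ntng1 and Nrp2 were lower, in IN1 in every library. Clstn2, a calsyntenin of the postsynaptic membrane, was 536, 592, 579.6 and 440.4 CPM against 215, 349, 391 and 345 CPM, and Cntnap5c, of the contactin-associated family, was 243, 165, 179 and 154 CPM against 68.8, 93.8, 88.4 and 65.6 CPM.

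In the presynaptic list, 1 of 29 genes was called higher (Cadps2), 10 were above and 5 below the others in all 4 libraries. Over all genes tested, 0.0862% were called higher, and 12.2% were above and 17.0% below in all 4 libraries. The synaptic vesicle gene Sv2b was 41.8, 76.3, 53.2 and 46.0 CPM in IN1 against 11.3, 25.1, 29.8 and 41.8 CPM, and Unc13c, a vesicle priming factor, was 247, 327, 375 and 257 CPM against 311, 411, 644 and 769.6 CPM. The difference in Sv2b was smallest at P21 and that in Unc13c largest at P21. Of 12 genes of calcium-binding proteins, Nos1 and reelin, none was called, 1 was above and 5 were below, and Reln itself was 151, 180.0, 98.5 and 104 CPM against 199, 181, 287 and 337 CPM. Of 5 neuropeptide genes measured, none was on the same side of the others in all 4 libraries. Among 23 genes of immature neurons, 4 were above and 10 below. Elavl2, a neuronal RNA-binding protein gene, was 575, 503, 454 and 539 CPM against 343, 334, 224 and 223 CPM, and its level in IN1 was nearly the same at all stages.

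**Figure D3:**
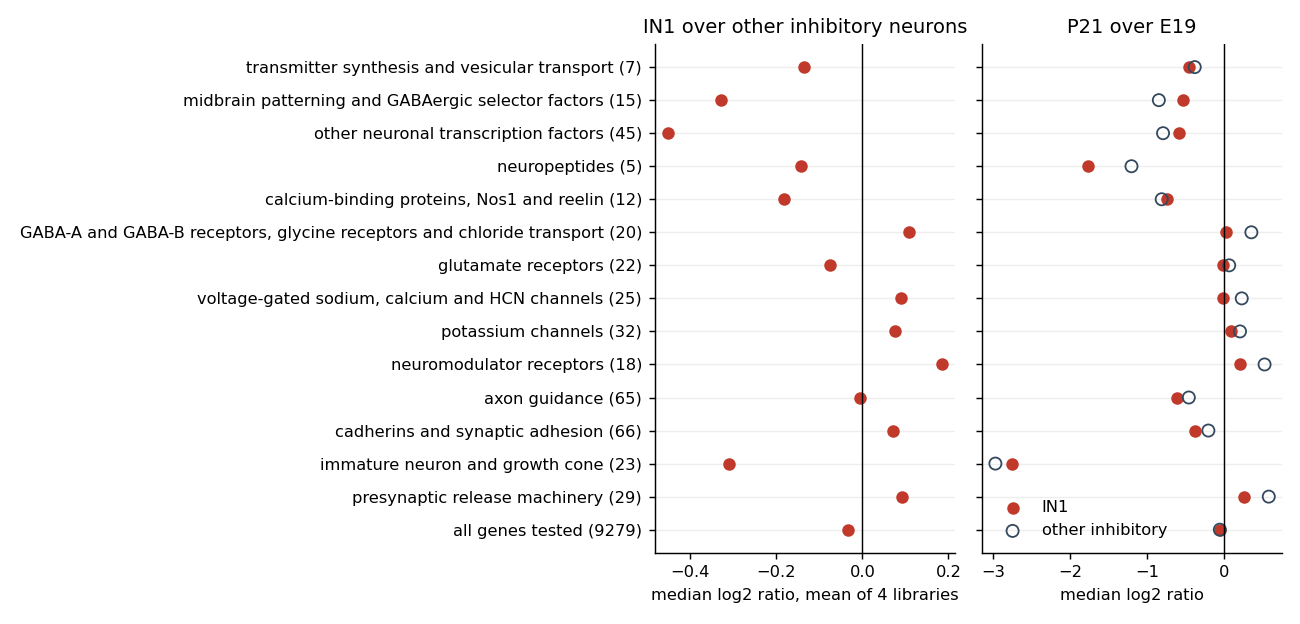
Median log2 ratio over the measured genes of each list, with their number in brackets, of IN1 to the other inhibitory neurons (left) and of P21 to E19 in IN1 and in the others (right). The list of other neuronal transcription factors lies at −0.45 and that of neuromodulator receptors at 0.18, and the genes of immature neurons stand at −2.76 in IN1 and −2.97 in the others from E19 to P21.

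Across 9279 genes, the profile of IN1 was most like that of IN2 in every library, with Pearson correlations of log2 values of 0.955, 0.961, 0.955 and 0.966, followed by IN8 with 0.918, 0.931, 0.942 and 0.950. The genes come from the same libraries and are not independent, so the correlations are a description. Against IN2, 29 of 9244 genes were called higher in IN1 (0.314%) and 24 lower (0.260%). Against IN8, 40 of 9217 were called higher (0.434%) and 36 lower (0.391%). These contrasts and the genes named from them were chosen after the values were seen.

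Adarb2, an RNA-editing family member without known editing activity, set IN1 apart from IN2, with 2893, 3265, 1167 and 2258 CPM in IN1 against 77.5, 91.7, 92.5 and 109 CPM in IN2. Tmem132d, a neuronal membrane protein gene, was lower, with 184, 173, 213 and 125 CPM against 1144, 1076, 1263 and 794 CPM. For both genes the values of the subtypes did not overlap at any stage. Against IN8, the homeobox factor gene Zfhx3 was higher, with 2168, 1189, 1479 and 973 CPM in IN1 against 192, 81.9, 96.0 and 78.4 CPM in IN8. Nfib, a nuclear factor I gene, was lower, with 273, 123, 127 and 105 CPM against 1384, 774, 762 and 677 CPM. IN1 thus had more Adarb2 than IN2 and more Zfhx3 and less Nfib than IN8 in each library. Mecom and Adarb2 were called higher in IN1 against both subtypes. For Mecom, a single nucleus held 55.6% and 84.9% of the UMIs of IN1 at E19 and P8. Without it Mecom was 10.3 CPM in IN1 at E19 against 2.77 CPM in IN2. That is less than 2-fold with 5 CPM added, so the Mecom call against IN2 rested on that nucleus.

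From E19 to P21 the IN1 profiles differed in many genes, among them most genes measured of the immature neuron list. Of 9199 genes tested, 465 were called higher at P21 (5.05%) and 1013 lower (11.0%), each past 2-fold. In the pooled other inhibitory neurons 561 and 977 of the same genes passed that size. Of the IN1 calls, 329 of the higher and 708 of the lower genes were also past 2-fold the same way in the others, and 6 and 32 had the opposite sign. Most calls were thus also past 2-fold in the rest of the inhibitory class, which was sampled in the same libraries. With every nucleus thinned to 2000 UMIs the IN1 calls were 950 and 1694, of which 324 and 760 were among those above.

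Of 23 genes of immature neurons and growth cones, 20 were called lower at P21 in IN1 and none higher, with medians of −2.76 in IN1 and −2.97 in the others. Tubb2b, a tubulin of young neurons, was 707, 343, 136 and 5.34 CPM in IN1 at E19, P4, P8 and P21. Nnat, which encodes the membrane proteolipid neuronatin, was 870.0, 450.1, 312 and 20.7 CPM and the transcription factor gene Sox4 was 115, 78.0, 46.7 and 8.01 CPM. Tubb2b, Nnat and Sox4 each stepped down at every stage in turn. Among 65 axon guidance genes, 21 were called lower and none higher. Over all genes tested, 11.0% were called lower and 5.05% higher. The growth cone gene Gap43 was 533, 452, 316 and 162 CPM in IN1 against 476, 409, 265 and 96.9 CPM in the others.

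Among genes called higher at P21, the release gene Snap25 was 231, 292, 366 and 648 CPM and Syt2, a fast calcium sensor of release, was 9.38, 26.1, 22.04 and 70.7 CPM in IN1. Kcna2, a Kv1 channel gene, was 13.6, 17.0, 13.0 and 64.1 CPM. For Kcna2 the 3 earlier libraries were alike and P21 was high, while Snap25 was higher in each later library. Rasgrf1, an exchange factor for Ras, was 53.7, 113, 143 and 607 CPM and the intramembrane protease homologue gene Rhbdl3 was 5.12, 7.88, 31.1 and 119 CPM. Htr2c rose by a log2 ratio of 2.29 in IN1 and 2.29 in the others. The largest rise in IN1 among genes that reached 100 CPM was that of Gm13629, with 10.7, 15.8, 23.3 and 321 CPM. Stx1a, a plasma membrane SNARE gene, was lower at P21, with 109.6, 128, 108 and 21.4 CPM. Of 32 potassium channel genes 5 were called higher at P21 and 1 lower, of 29 presynaptic genes 4 and 3, of 18 neuromodulator receptor genes 3 and none, and of 45 other neuronal transcription factors 1 and 15. Of 5 neuropeptide genes 4 were called lower and none higher. Over all genes tested, 5.05% were called higher and 11.0% lower, and the 3 of 29 presynaptic genes called lower lay near that share. The median log2 ratio of the presynaptic list was 0.26 in IN1 and 0.58 in the others.

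Between stages, the 90th percentile of the absolute log2 step over genes at 100 CPM or more was 0.51 for the step E19 to P4 in IN1 and 0.56 in the other inhibitory neurons. It was 0.51 against 0.37 for P4 to P8, and 0.88 against 0.79 for P8 to P21. The last step was the largest in both. The P4 to P8 step, which involves the 52 IN1 nuclei of P8, was larger in IN1 than in the others. After thinning every nucleus to 2000 UMIs, that step was 0.90 in IN1 and 0.45 in the others. The P8 profiles still rest on 52 IN1 nuclei and 1036 other nuclei, so counting error enters the steps of the groups unequally. Thinning therefore cannot settle which group has the larger step. The E19 to P4 step was smaller in IN1 than in the others as given, but larger after thinning, with 0.67 against 0.58, and with each nucleus weighted alike, with 0.53 against 0.52.

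Genes whose P21 to E19 ratio in IN1 departed furthest from that in the other inhibitory neurons were named by rank. Mecom, a zinc finger factor also called EVI1 (chr3:29951296-30548008), was 23.0, 133, 94.7 and 212 CPM in IN1 at E19, P4, P8 and P21 against 9.68, 3.02, 3.98 and 1.22 CPM in the others, log2 ratios of P21 to E19 of 2.95 and −1.24. A single nucleus held 55.6%, 24.0%, 84.9% and 37.5% of the Mecom UMIs of IN1 at these stages, and without it the levels were 10.3, 102, 14.5 and 134 CPM. Without that nucleus IN1 was still higher at P4 and P21 than at E19, and the P8 level was close to that of E19. Pax3, a paired-box factor of the dorsal neural tube (chr1:78101267-78197134), was 36.7, 105, 108 and 179 CPM in IN1 against 29.0, 19.6, 13.0 and 11.3 CPM, so that it was higher at each later stage in IN1 and lower at each later stage in the others. The highest nucleus held 22.1%, 11.9%, 37.3% and 17.5% of the Pax3 UMIs of IN1, and without it the levels were 28.7, 93.0, 69.4 and 151 CPM, with P8 then below P4.

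Tcf7l2 was called lower at P21 in the others, with a log2 ratio of −2.22, and was 0.36 in IN1. Its low P8 level in IN1, 135 CPM, came to 34.6% from 1 nucleus, and was 90.7 CPM without it. Zic1 was 26.4, 62.2, 121 and 42.0 CPM in IN1 against 26.5, 30.4, 11.3 and 4.08 CPM, and Zic4, which lies beside it in the genome, was 18.8, 41.5, 86.9 and 24.7 CPM against 14.9, 14.8, 6.50 and 1.02 CPM. Both Zic genes were highest at P8 in IN1, while the others were low at P8 and P21.

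Other factors were low in the later IN1 libraries. Pax5, a paired-box factor of the midbrain and hindbrain (chr4:44524757-44710487), was 118 CPM at E19 from 277 UMIs, and 2, 0 and 0 UMIs were counted at P4, P8 and P21. In the other inhibitory neurons Pax5 stood at 4.42, 0, 0.291 and 0.306 CPM. Six3, a homeobox factor, was 116, 37.3, 0 and 5.34 CPM in IN1 against 8.85, 2.01, 0.291 and 0.408 CPM. Both genes were thus highest in the E19 library of IN1, and the others were low in all 4 libraries. Meis2, a TALE homeobox factor gene (chr2:115863064-116065839), was 350.1, 184, 36.3 and 12.01 CPM in IN1 against 436, 293, 386 and 379 CPM, log2 ratios of P21 to E19 of −4.38 and −0.20. IN1 and the others were of similar Meis2 level at E19 and far apart at P8 and P21.

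The same course of high early and low late values was seen in Rnf220, an E3 ubiquitin ligase gene, at 174, 102, 22.04 and 26.0 CPM in IN1 against 32.6, 38.7, 23.1 and 42.6 CPM. Adamtsl1, a secreted matrix protein gene, was 136, 127, 86.9 and 39.4 CPM in IN1 against 111, 166, 249 and 238 CPM, and Stac, an adaptor of calcium channels, was 60.1, 82.5, 66.1 and 31.4 CPM against 47.3, 105, 172 and 209 CPM. Adamtsl1 was lower at each later stage in IN1 and higher at P8 and P21 than at E19 in the others. The adhesion gene Il1rapl2 was 588, 401, 201 and 159 CPM against 569, 619, 921 and 823 CPM. Cdh23, a cadherin known from the tip links of hair cells, was 98.5, 145, 563 and 139 CPM in IN1 against 43.1, 98.3, 77.5 and 18.6 CPM, with its highest value at P8. The neuropeptide gene Npy was 52.0, 14.5, 0 and 8.01 CPM against 3.04, 1.01, 1.26 and 0.816 CPM, and Sst was 147, 26.5, 28.5 and 24.7 CPM against 285, 80.2, 32.9 and 20.3 CPM. At P21 1 nucleus held 75.7% of the Sst UMIs of IN1, and the level without it was 6.10 CPM. Sst was highest at E19 in IN1 and in the others alike, while Npy was low in the others in all 4 libraries.

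**Figure D4:**
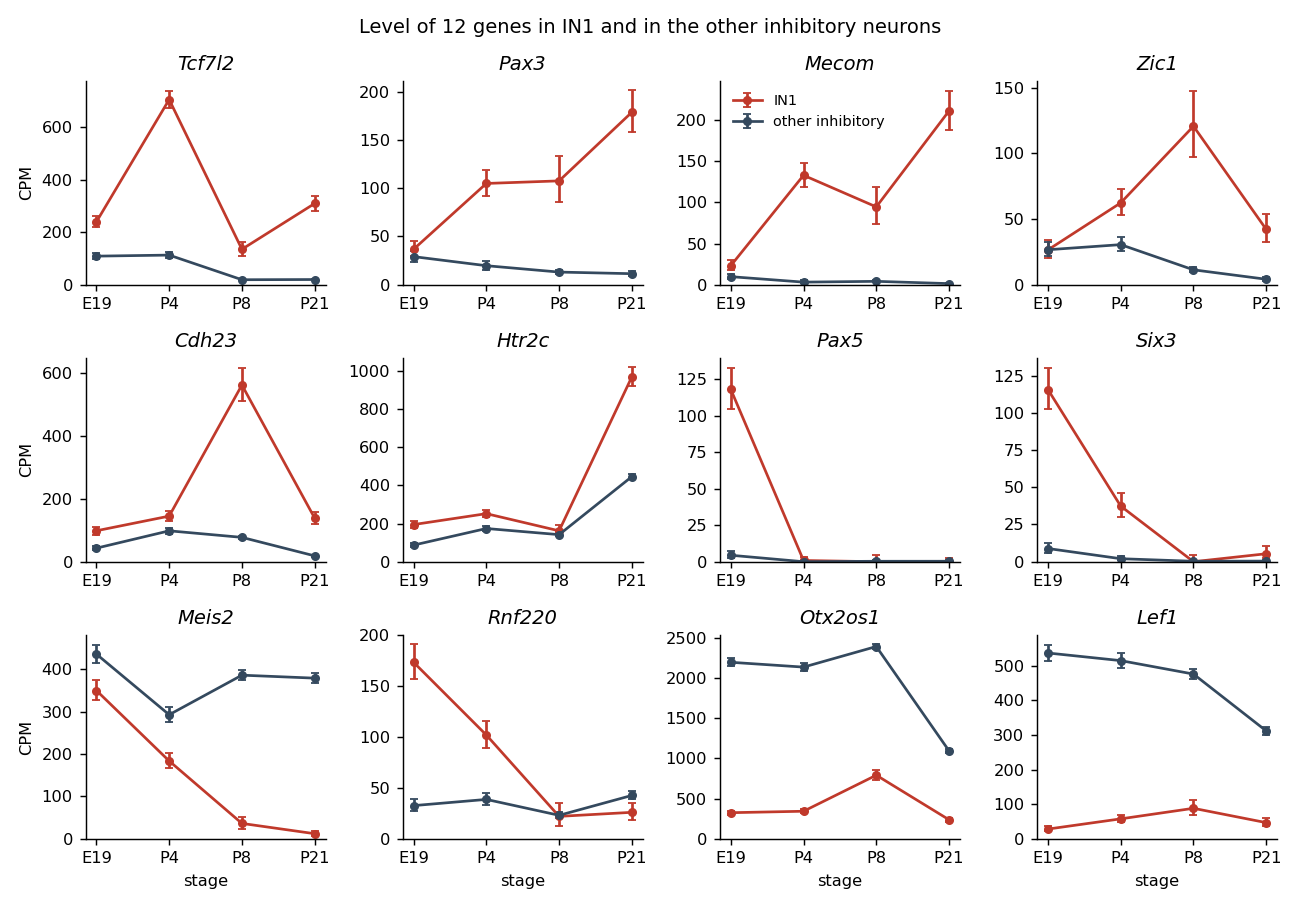
CPM against stage for 12 genes in IN1 (red) and in the pooled other inhibitory neurons (blue), on a linear axis for each gene, with exact 95% Poisson intervals as bars and 1 library per point. Pax3 goes from 36.7 to 179 CPM in IN1 and from 29.0 to 11.3 CPM in the others, and Meis2 from 350.1 to 12.01 CPM in IN1.

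The transcription factors were unevenly spread over the IN1 nuclei. Overdispersion, the variance of UMI counts beyond counting error relative to the squared mean, had a median over the libraries of 28.8 for Mecom, 9.66 for Pax3, 8.06 for Col25a1, 5.80 for Meis2 and 5.28 for Gpc5. The median over 1911 genes was 0.135 and the value of Gad2 was 0.208. A Mecom UMI was found in 10, 17, 2 and 9 IN1 nuclei at E19, P4, P8 and P21, and 50% of the Mecom UMIs lay in 1, 3, 1 and 2 nuclei. For Pax3 there were 13, 27, 9 and 20 such nuclei, and for Tcf7l2 there were 114, 142, 14 and 33. Gad2 was found in 239, 191, 52 and 70 nuclei. Mecom, Pax3 and Tcf7l2 were thus each counted in fewer nuclei than Gad2 in every library.

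To describe these nuclei, those with 3 or more UMIs of a factor were set beside those with none. Such a division is a range of counts and not a cell type, and the factors and the genes named beside them were chosen after their values were seen. At P4, 11 nuclei held 3 or more Mecom UMIs, 6 held 1 or 2 and 188 held none. At P21 these numbers were 8, 1 and 61. All Mecom-bearing nuclei of both stages lay in cluster 2, and their median depths were 11806 and 22762 UMIs, against 11329.5 and 19874 in the nuclei with none.

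Col25a1, a transmembrane collagen gene, was 2277 against 372 CPM in nuclei with and without Mecom at P4, and 1127 against 102 CPM at P21. The transcription factor gene Ebf3 was 291 against 30.4 CPM at P4 and 174 against 15.3 CPM at P21. Erbb4, the neuregulin receptor of many interneurons, was 2586 against 524 CPM at P4 and 2700.3 against 558 CPM at P21. Col25a1, Ebf3 and Erbb4 were thus higher in the summed Mecom-bearing nuclei of both libraries. A UMI of Col25a1 was found in 7 of the 11 such nuclei at P4 and 5 of the 8 at P21. For Ebf3 these numbers were 4 and 4, and for Erbb4 11 and 7. At P21, 2 nuclei held 50% of the Col25a1 UMIs of IN1. Tcf7l2 was 1824 against 649 CPM at P4 and 639 against 271 CPM at P21. Zfhx3 was lower, 154 against 1231 CPM at P4 and 157 against 1096 CPM at P21. Lef1 was 0 against 56.7 CPM and 0 against 52.1 CPM. Gad2 was 839 against 513 CPM and 459 against 401 CPM, so these nuclei were inhibitory by that marker.

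Nuclei with Pax3 were described in the same way. At P4, 19 nuclei held 3 or more Pax3 UMIs, 8 held 1 or 2 and 178 held none, and at P21 these numbers were 17, 3 and 50. Their median depths were 12458 and 20382 UMIs, against 11286 and 20439 in the nuclei with none. Tcf7l2 was 1581 against 608 CPM in nuclei with and without Pax3 at P4, and 582 against 203 CPM at P21. Slit3 was 38.1 against 289 CPM at P4 and 28.1 against 243 CPM at P21. Pax3-bearing nuclei thus had more Tcf7l2 and less Slit3 in both libraries, although both genes were called higher in IN1 as a whole. In the Mecom-bearing nuclei Pax3 was 8.56 against 110.4 CPM at P4 and 52.3 against 198 CPM at P21.

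At E19, 35 nuclei held 3 or more Pax5 UMIs, 30 held 1 or 2 and 201 held none, with median depths of 9489 and 8427 UMIs in the first and the last. Pax8, a paired-box factor of the same subfamily, was 113 against 2.86 CPM, and was counted at 0 UMIs in IN1 at P4, P8 and P21. Nfia, a nuclear factor I gene, was 338 against 66.9 CPM. Pax8 and Nfia were higher in the Pax5-bearing nuclei. Meis2 was 60.9 against 418 CPM and Tcf7l2 was 57.9 against 303 CPM, both lower in the Pax5-bearing nuclei, while Gad2 was 518 against 569 CPM.

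Meis2 was held at 3 or more UMIs by 34 nuclei at E19, with 66 at 1 or 2 UMIs and 166 at none, and by 20 nuclei at P4, with 45 and 140. Their median depths were 10469.5 and 13308.5 UMIs, against 8412.5 and 11311 in the nuclei with none. At E19, Sdk2, an adhesion molecule of retinal and other layered circuits, was 282 against 64.8 CPM in nuclei with and without Meis2, and Pax5 was 37.9 against 127 CPM. At P4 the LIM homeobox gene Isl1 was 103 against 0 CPM, Tcf7l2 was 57.1 against 844 CPM and Pax3 was 0 against 117 CPM. The Isl1 level came from 29 UMIs in 7 of the 20 nuclei, and IN1 held no Isl1 UMI at E19, P8 or P21. The Meis2-bearing nuclei thus had less Pax5 at E19, and less Tcf7l2 and Pax3 at P4, than the nuclei without Meis2. At P8, 24 nuclei held 3 or more Cdh23 UMIs, 6 held 1 or 2 and 22 held none, and the first had a median depth of 16646 UMIs against 12804.5 in the last. Gpc5 was 2623 against 343 CPM in nuclei with and without Cdh23. Mecom was 0 against 264 CPM, but its 73 UMIs in IN1 at P8 lay in only 2 nuclei, 62 of them in 1.

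**Figure D5:**
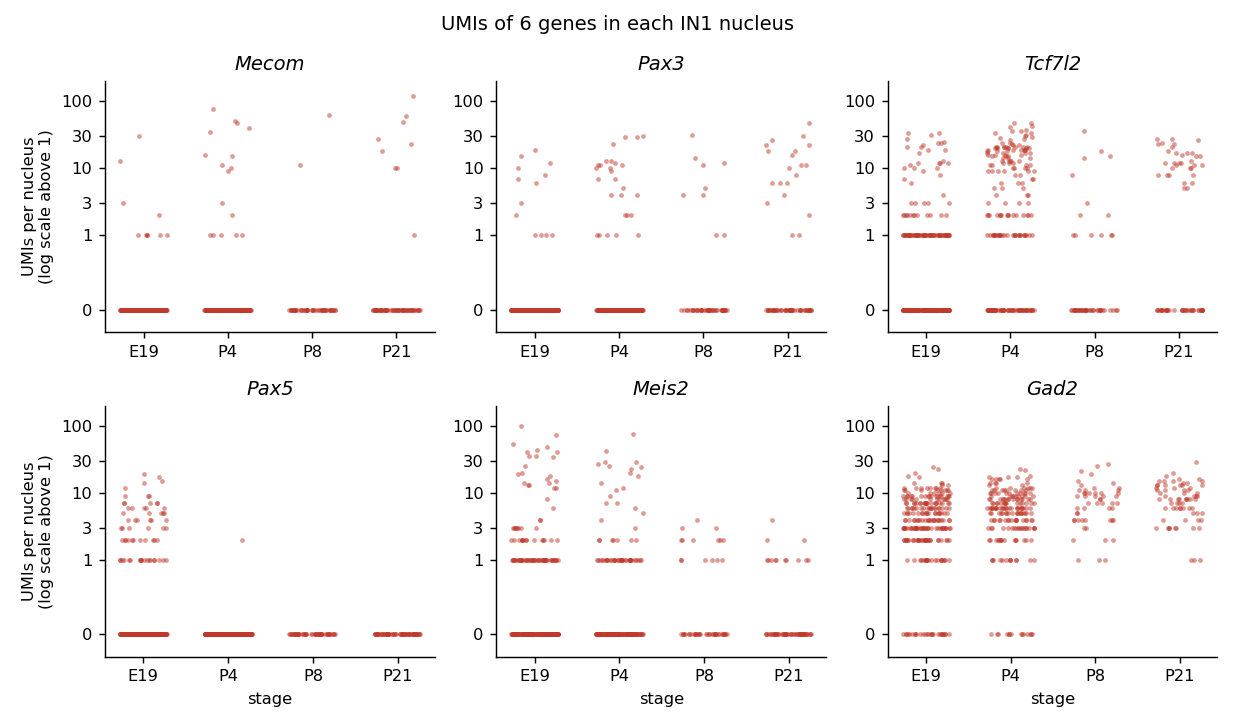
UMIs of Mecom, Pax3, Tcf7l2, Pax5, Meis2 and Gad2 in each IN1 nucleus by stage, with 1 point per nucleus, on an axis that is linear from 0 to 1 and logarithmic above. Mecom is found in 10, 17, 2 and 9 nuclei at E19, P4, P8 and P21 and Pax5 in 65 nuclei at E19 and 1 at P4, while Gad2 is found in 239, 191, 52 and 70.

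The name IN1 also spans several of the authors' clusters. Of the 593 nuclei, 476 (80.3%) lay in cluster 2, 64 (10.8%) in cluster 3, 21 in cluster 5, 15 in cluster 0, 7 in cluster 7, 6 in cluster 10 and 2 each in clusters 22 and 29. Cluster 0 was otherwise excitatory, with 1557 of its 1572 nuclei in that class, and its 15 IN1 nuclei had 40.8 CPM of Gad1, 95.2 CPM of Gad2 and 104 CPM of Slc17a6. These 15 nuclei were therefore low in inhibitory markers. Cluster 7 was also mostly excitatory, with 369 of its 405 nuclei in that class. Its 7 IN1 nuclei had 176 CPM of Gad1, 474 CPM of Gad2 and 17.6 CPM of Slc17a6. In cluster 3 against cluster 2, Zfhx3 was 3696 against 1214 CPM, Trhde, which encodes the enzyme that degrades thyrotropin-releasing hormone, was 664 against 213 CPM, and the bZIP factor gene Maf was 229.7 against 48.2 CPM. Npy was 101 against 14.0 CPM over all stages, with 306 against 23.9 CPM at E19 and 0 against 10.2 CPM at P21. Mecom was 3.15 against 132 CPM, Cadps2 was 22.03 against 196 CPM and Cdh23 was 11.0 against 197 CPM. Cluster 3 was thus lower in Mecom, Cadps2 and Cdh23, of which only Cadps2 is among the 8 genes called higher in IN1. The genes named for clusters 2 and 3 are among those that differed most between these clusters. The cluster numbers come from the integrated expression data of these nuclei, per the file headers.

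The deposited table also gives each nucleus 2 SingleR reference labels, and IN1 spread over several of them. Pooled over the stages, whose mix of labels differed, 218 IN1 nuclei (36.8%) were named ESC1 in the Transseq labels, 214 (36.1%) ISC5 and 161 (27.2%) ESC2, against 14.7%, 61.2% and 23.7% of the other inhibitory nuclei. By stage, ESC1 took 46.6%, 37.6%, 13.5% and 14.3% of IN1 at E19, P4, P8 and P21, against 23.6%, 25.7%, 10.04% and 4.78% of the others, and ESC2 took 58.6% of IN1 at P21 against 37.9%. In the Vectorseq labels, 243 (40.98%) were in group 1, 124 (20.9%) in group 12 and 92 (15.5%) in group 2, against 19.6%, 0.140% and 0.0698% of the others. Group 12 took 35.7% of IN1 at E19, 8.78% at P4 and 15.7% at P21 and held no IN1 nucleus at P8. Groups 12 and 2 were thus almost absent from the other inhibitory nuclei. Labels of the excitatory nuclei were not counted, so whether these groups are particular to IN1 was not tested.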

How the data were processed

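Nuclei of mouse superior colliculus were isolated over a sucrose cushion and captured with 10x 3′ v3 chemistry, with 2000 nuclei sought per library, per the labels' protocols. Cell Ranger 3.0.2 and the mm10 build are named in the submitters' processing notes, and the labels describe a pre-mRNA reference, so intronic reads were counted. The deposited matrix holds raw UMI counts of 31053 genes in 9724 nuclei. The deposited table gives UMI and gene counts, which equalled the matrix sums in all 9724 nuclei, and the percent of mitochondrial and ribosomal UMIs, not above 5% for the former, besides stage, subtype, cluster number and reference labels. Its other 4 columns of values were not used. The steps by which the authors filtered nuclei, integrated libraries and named subtypes were not stated in the sources used here.

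UMIs were summed per library and group and scaled to 1000000 (CPM). Log2 ratios had 5 CPM added, which understates the change of low genes, and genes under a mean of 10 CPM were left out. Intervals were exact Poisson or Clopper-Pearson at 95%. Depth ranged from 2355 UMIs upward per nucleus. Genes were named by rank: the largest lowest ratios against the other inhibitory neurons, the largest stage differences in IN1, the largest departures from the others, the highest overdispersion, and up to 4 genes per list. Of 149 genes named by rank, 81 overlap a gene on the opposite strand and 55 one on the same strand, so that UMIs may be shared. Positions come from GENCODE M21 (GRCm38), which held 31011 of the 31053 identifiers, and are 1-based. The members and lists were chosen with earlier results of these data known. Alternatives were pseudocounts of 1 and 20 CPM, no filter, equal weight per nucleus or subtype, thinning, median-of-ratios scaling and removal of nuclei with excitatory markers. Python 3.11.15, numpy 2.4.6, scipy 1.17.1 and pandas 2.3.3 were used.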

Additional observations from a re-analysis of the deposited data

Results flagged for a closer look

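Differences that ran in opposite directions between IN1 and the pooled other inhibitory neurons, each past 2-fold between E19 and P21, were found for 2 of the genes that reached 50 CPM in IN1 and 10 CPM in the others. Mecom, whose opposite log2 ratios of 2.95 and −1.24 stand above, reached only 9.68 CPM in the others. The log2 ratio of P21 to E19 of Pax3 was 2.14 in IN1 and −1.06 in the others, a difference of 3.20. The log2 ratio of Adamtsl1 was −1.66 in IN1 and 1.06 in the others, a difference of −2.73. With 1 library per stage the difference was not tested for either gene.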

How the results depend on the processing

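The IN1 share stayed within its counting intervals without nuclei that held excitatory markers and over nuclei with a UMI of Gad1, Gad2 or Slc32a1, and a minimum of 2000 UMIs removed no nucleus. The 8 genes higher in IN1 became 14 with a pseudocount of 1 CPM and 3 with 20 CPM, and the 31 lower genes became 16 with 20 CPM. All 8 were called again with 1 CPM, with median-of-ratios scaling and with no filter on low values, and 5 of the 8 after thinning to 2000 UMIs, where 12 were called. From E19 to P21, the 465 higher and 1013 lower genes became 222 and 479 with 20 CPM and 950 and 1694 after thinning. The P4 to P8 step of 0.51 became 0.90 after thinning, where each profile rests on fewer UMIs and counting error is larger. The E19 to P4 step, smaller in IN1 than in the others (0.51 against 0.56), was larger with each nucleus weighted alike (0.53 against 0.52) and after thinning (0.67 against 0.58). Thinning gave 259 CPM for Gad1 at E19, 254 CPM for Gad1 at P4, 483 CPM for Gad2 at P4, 635 CPM for Gad2 at P8 and 14.3 CPM for Slc17a6 at P21. The cause was not tested.

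Alternatives chosen after seeing the data were also run. With only the IN1 nuclei of cluster 2, 11 genes were higher, 7 of them among the 8, and 34 lower, 29 of them among the 31. Without the P8 library 10 and 33 were called, with all 8 and all 31 among them. Without the nucleus richest in the gene, Gpc5 was 1186 CPM at P8 and 793 CPM at P21, Htr2c was 883 CPM at P21 and Meis2 was 311 CPM at E19, and the P4 to P8 difference of Pax3 turned from higher to lower. No paired analysis was possible because each stage has 1 library. The levels at P8 and P21 rest on 52 and 70 IN1 nuclei.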
